A study of Mus musculus with 4 samples.

Results

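Gene expression of wildtype mouse CD4 T cells after 6 h of stimulation was set against that of unstimulated wildtype cells, on 2 of the 4 single-colour Agilent arrays of the series. The arrays were chosen by their labels alone, and each value is the raw signal scaled within its array. CD4 T cells are lymphocytes that help B cells, killer T cells and phagocytes. Per the labels, they came from lymph nodes of male mice aged 7 weeks, were wildtype or knockout for Med23, which encodes part of the Mediator coactivator, and were used fresh. Stimulation went through the T cell receptor (TCR), per the design text, and 1 µg of total RNA per sample was labelled with Cy3. The groups were stimulated wildtype, unstimulated wildtype, stimulated labelled knockout and unstimulated labelled knockout, with 1 array each. The stimulating agent, the allele and driver of the knockout, the number of mice behind a sample and the selection of the CD4 T cells are not stated in the labels. With 1 array on each side no test was possible, no p-value is given, and genes are called by size alone.

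The TCR recognizes peptide on an antigen-presenting cell, and its signal runs through the kinases Lck and Zap70 to calcium with calcineurin and NFAT, to the RAS-MAPK pathway with AP-1, and to NF-kB. Within hours a naive helper cell makes immediate early transcription factors and cytokines, takes up nutrients, enlarges its nucleoli and gives up the genes that keep it quiescent and circulating. Division comes later. The lists of genes used below follow this order, from transcription factors to secreted proteins, receptors, signalling parts, resting-state genes and growth machinery.

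A level is the log2 of a signal after division by its array's 75th percentile, so that 0 is the signal of a fairly bright probe. Signals below a floor of -5.01 were set to it, and a gene counted as measured when it lay above the floor in at least 1 of the arrays compared. A difference is the stimulated level minus the unstimulated level, on the log2 scale, and a gene was called higher or lower at a 2-fold difference. Where all probes of a gene lay at the floor on 1 side, the difference is a bound, written "at least" or "at most". Unless another quantity is named, a value in parentheses after a gene is its difference in wildtype cells. Levels of different genes cannot be compared, since probes differ in brightness.

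Nr4a1, Irf4, Il2, Ccl4 and Dapl1 mark the response. Nr4a1, an orphan nuclear receptor switched on within the first hour of TCR signalling, had a level of 8.38 in stimulated and 4.24 in unstimulated wildtype cells (4.14, 17.6-fold). Irf4, a transcription factor whose amount follows the strength of the TCR signal, stood at 5.41 in stimulated and 0.94 in unstimulated cells (4.47). Il2, the growth factor of T cells, stood at 3.83 in stimulated and -0.22 in unstimulated cells (4.05). All of these were far above their unstimulated level, by at least 16.6-fold. Ccl4, a chemokine of activated T cells, had levels of 3.44 and -2.88 in stimulated and unstimulated wildtype cells (6.32, 79.9-fold). Dapl1, a marker of naive T cells, went the other way, with 1.14 in stimulated and 4.42 in unstimulated cells (-3.28, 9.69-fold lower). Its level in unstimulated wildtype was 3.01 above that of the next highest array, unstimulated labelled knockout (1.41). The size of its wildtype difference thus leans on 1 array. The arrays labelled knockout, which are separate from the wildtype ones, showed the same directions: Nr4a1 8.89 and 3.96, Irf4 5.69 and 1.44, Il2 5.11 and 0.14, Ccl4 5.68 and -2.77, and Dapl1 -2.80 and 1.41, each time stimulated before unstimulated.

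The promoters of 4 of these markers were in the RefSeq table used here, on build GRCm38.p6, as windows from 250 bases before the annotated start to 50 bases after it. They are shown because these genes mark the response, 3 of them on the higher and 1 on the lower side. Capitals mark matches to the motifs searched, and each is written 5′ to 3′ on the gene's strand.
Nr4a1, chr15:101266596-101266895, plus strand: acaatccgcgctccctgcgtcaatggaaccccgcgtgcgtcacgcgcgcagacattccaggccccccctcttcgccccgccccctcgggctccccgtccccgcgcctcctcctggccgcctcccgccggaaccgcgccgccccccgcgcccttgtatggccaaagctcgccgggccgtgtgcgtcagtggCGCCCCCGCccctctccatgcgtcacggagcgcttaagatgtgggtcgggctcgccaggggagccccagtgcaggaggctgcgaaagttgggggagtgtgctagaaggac
Irf4, chr13:30748983-30749282, plus strand: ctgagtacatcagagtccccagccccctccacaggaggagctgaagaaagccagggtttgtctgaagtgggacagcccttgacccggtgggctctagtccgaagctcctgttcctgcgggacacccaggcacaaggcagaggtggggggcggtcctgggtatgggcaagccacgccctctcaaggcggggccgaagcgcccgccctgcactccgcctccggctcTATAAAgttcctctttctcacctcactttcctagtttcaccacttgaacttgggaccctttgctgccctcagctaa
Il2, chr3:37125905-37126204, minus strand: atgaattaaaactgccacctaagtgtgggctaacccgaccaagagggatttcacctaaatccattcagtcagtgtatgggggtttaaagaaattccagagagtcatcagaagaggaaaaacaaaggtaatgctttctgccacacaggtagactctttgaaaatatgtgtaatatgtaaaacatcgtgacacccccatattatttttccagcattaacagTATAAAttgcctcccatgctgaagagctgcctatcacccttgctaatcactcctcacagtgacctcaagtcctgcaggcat
Dapl1, chr2:59484403-59484702, plus strand: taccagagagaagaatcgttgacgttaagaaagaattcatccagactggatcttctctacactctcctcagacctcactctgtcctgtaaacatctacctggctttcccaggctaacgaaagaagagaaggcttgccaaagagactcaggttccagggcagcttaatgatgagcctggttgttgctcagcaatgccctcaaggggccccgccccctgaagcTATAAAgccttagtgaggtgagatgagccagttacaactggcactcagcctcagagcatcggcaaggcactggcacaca
The Nr4a1 window holds a GC-rich EGR site that begins 60 bases before the start (position -60). The Irf4, Il2 and Dapl1 windows each hold a TATA box, at positions -26, -31 and -29. Nr4a1 and Irf4, both higher, share no match here, and Dapl1, which was lower, has the same TATA match as Il2, which was higher. A match is a description of letters, and nothing follows from it about a factor.

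The stimulated wildtype array stood apart from the other 3 arrays in brightness and in its levels of genes of other cells. Its raw signal at the 75th percentile was 680.8, against 269.1 in unstimulated wildtype, 243.7 in stimulated and 332.6 in unstimulated labelled knockout. T cell genes were bright on both wildtype arrays: Cd3e, a chain of the TCR complex, stood at 6.97 in stimulated and 7.86 in unstimulated cells, and Cd4 at 1.54 and 2.62. Cd8a, which CD4 T cells lack, lay near the floor at -4.99 and -4.24. Med23 had levels of -0.75 in stimulated and -1.59 in unstimulated wildtype cells and of -2.29 and -1.66 in stimulated and unstimulated cells labelled knockout. The stimulated arrays thus differ in the direction of their labels, but the unstimulated arrays do not differ the way their labels say. The arrays are therefore called "labelled knockout".

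Neutrophil genes were among the largest differences on the stimulated wildtype array. All 28 measured genes of 29 for neutrophil granule and secreted proteins were higher there (median 6.46), where 14.2% of all measured genes were higher and 12.8% lower. All 28 were also at least 2-fold above each of the other 3 arrays, as were 4.1% of all measured genes. Summed over the list as linear signal relative to the 75th percentile, the level was 408 in stimulated wildtype, 4.76 in unstimulated wildtype, and 4.37 and 4.71 in stimulated and unstimulated labelled knockout. In the other 3 arrays 13 or 14 of the 29 genes lay at the floor, against 1, Bpi, in stimulated wildtype. Camp, an antimicrobial peptide, stood at 6.00 in stimulated and -4.23 in unstimulated wildtype (10.23). Myeloperoxidase Mpo (at least 9.70), haptoglobin Hp (at least 9.27), lactoferrin Ltf (at least 8.91), cathepsin G Ctsg (8.87) and Stfa2 (8.72), one of several near-identical stefins whose probes may share signal, followed. These are genes of immature and mature granulocytes, which a CD4 T cell does not use.

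Red cell genes did the same on a smaller scale. Of 17 measured red cell genes of 20 on the array 10 were higher and 0 lower (median 1.23), and all 10 were 2-fold above each other array. Of the 20, 3 lay at the floor in stimulated and 11 in unstimulated wildtype. A gene at the floor in unstimulated cells could not be called lower, so the count and median are tilted to the higher side. In the authors' values 2 of 7 were higher (median 0.07), and 6 of 12 under a floor at the 60th percentile. Their summed level was 189 in stimulated wildtype against 53.8 in unstimulated wildtype, 59.97 in stimulated and 41.3 in unstimulated labelled knockout. Alpha globin Hba-a2 had a level of 6.89 in stimulated and -3.39 in unstimulated wildtype (10.28), and its near-identical copy Hba-a1 was higher by at least 10.05. Alas2, the first enzyme of heme synthesis in red cells, was higher by at least 4.73, and the beta globin Hbb-bt by at least 5.26. Epb42 and Add2 lay at the floor on both wildtype arrays. Myeloid receptors and signalling genes (23 of 29 measured higher, 1 lower, median 2.33) included Cebpe, a granulocyte transcription factor, at 3.09 against the floor (at least 8.10), and Plbd1 (6.19), Alox5ap (5.78), Cybb (5.09) and Tyrobp (4.68). Of the 32 myeloid genes on the array 3 lay at the floor in stimulated and 11 in unstimulated wildtype. Csf3r, the receptor for the granulocyte growth factor, was bright and alike on all arrays, at 5.41 and 5.78 in stimulated and unstimulated wildtype.

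Other cell types were less uniform. Platelet genes had 3 of 8 measured genes higher, led by Pf4 (at least 3.76), with 7 of the 15 on the array at the floor in stimulated and 10 in unstimulated wildtype. In the authors' values 0 of 3 platelet genes were higher, and 1 of 4 under a floor at the 60th percentile. Mast cell, basophil and eosinophil genes had 3 of 10 higher: Hdc, which makes histamine (at least 5.31), Ear2 (at least 3.97) and Prg2 (at least 3.33). For this list 0 of 2 were higher in the authors' values and 2 of 4 under the 60th percentile floor. Macrophage and dendritic genes numbered 4 on the higher and 5 on the lower side among 22 (median -0.19), with Tgfbi (4.38) against Fscn1 (-1.47) and the class II gene H2-Eb1 (-1.10). C1qa, Cd163, Mrc1, Clec9a and Xcr1 lay at the floor in stimulated wildtype. Among 20 B and plasma cell genes 9 were lower and 2 higher (median -0.93), or 2 of 9 lower under the 60th percentile floor, with Spib (at most -2.26), Jchain (-1.92) and Blnk (-1.56) on the lower side and Pou2af1 (3.81), which activated T cells also use, and Fcer2a (at least 3.30) on the higher side. CD8, natural killer and gamma delta T cell genes had 4 higher and 4 lower of 15, among them Klrc1 (at most -2.13), Klrd1 (-2.05) and Cd8b1 (-2.02), and stroma genes had 1 higher and 3 lower of 13. In RNA from a mixed sample, fewer cells of a type and less RNA per cell cannot be told apart. The part these cells play in any difference below was not tested.

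**Figure D1:**
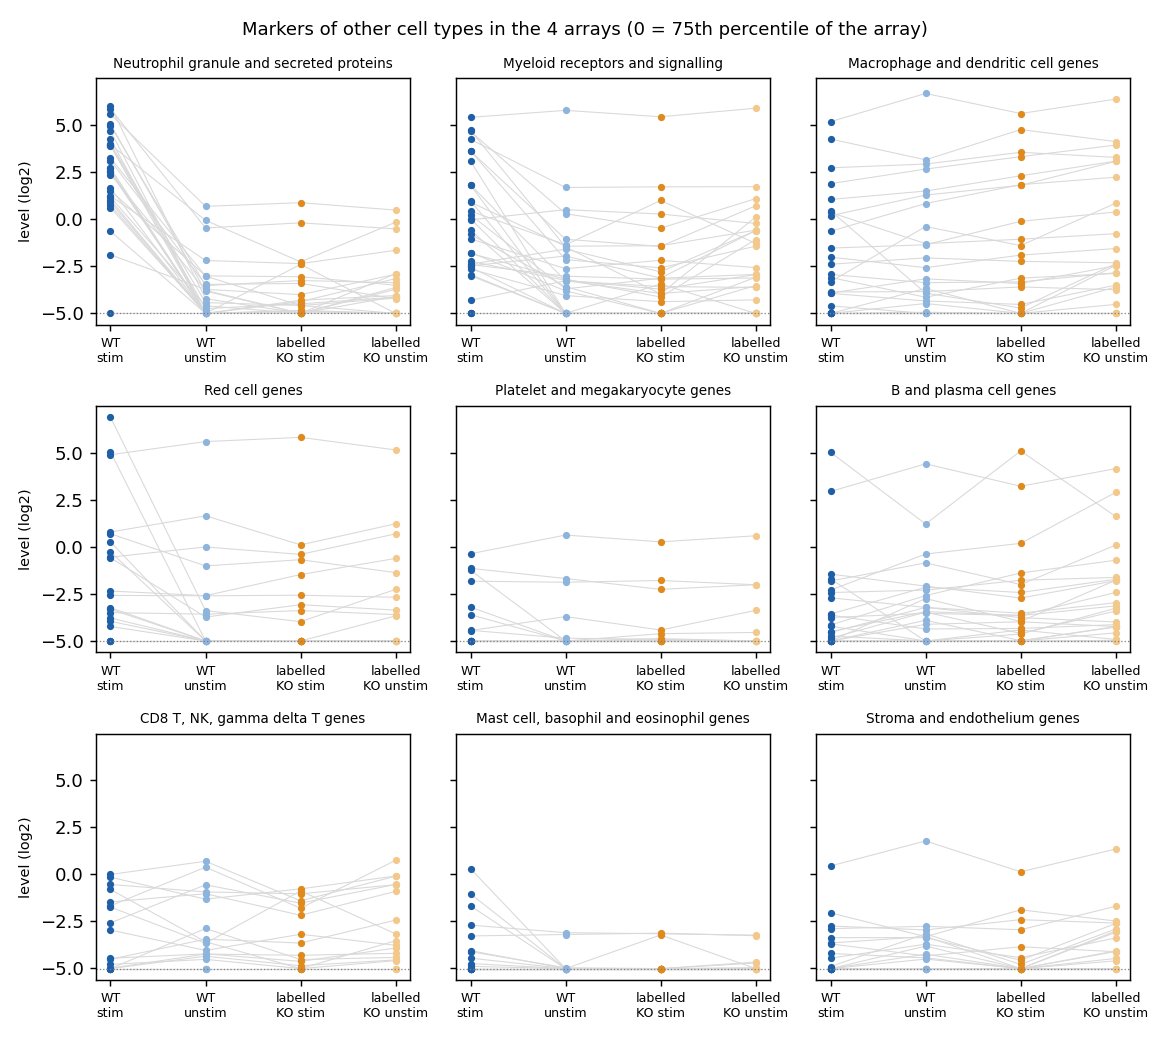
Each panel shows the marker genes of 1 other cell type as points, joined by a grey line per gene, in the 4 arrays (WT, wildtype; stim, stimulated; unstim, unstimulated); the y axis is the log2 level with 0 at the array's 75th percentile and the dotted line the floor. The neutrophil genes stand up to 6.00 in stimulated wildtype and no higher than 0.88 in the other arrays, and globins stand out in the red cell panel, whereas the B cell genes show no such split.

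Over all genes, 2079 of 14619 measured genes were higher after stimulation in wildtype, the 14.2% given above, and 1870 were lower. Genes outside the 9 lists of other cells made up 2002 of the higher and 1849 of the lower ones. Higher genes were 52.6% of those called, against 36.2% when arrays were scaled to their median and 41.6% in the authors' normalized values, where the median of all genes lay at -0.23 and -0.18 instead of -0.02. Median scaling thus shifts most differences by about the size of its median, and list medians below stand beside it. The authors' values, which cover fewer probes, moved some lists by more. The median of NFAT and calcineurin genes was -0.78 there, against -0.30 here, and that of costimulatory and coinhibitory receptors 0.66, against 1.22. Most genes moved little, with the 5th and 95th percentiles of all differences at -1.52 and 1.82. At 16-fold or more stood 111 genes on the higher side and 14 on the lower side. Of the 111, 42 were on the lists of other cells and 41 were also 2-fold higher in the arrays labelled knockout. In stimulated wildtype 79 of the 111 were 2-fold above each of the other 3 arrays, and 37 of these 79 were on no list of other cells. Between repeat spots of 1 probe, the SD of a difference between the wildtype arrays was 0.105 above a level of 1 and 0.797 between the floor and -3, which makes the dim genes the least secure. That SD covers spot noise and leaves out any spread from one animal or culture to the next.

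**Figure D2:**
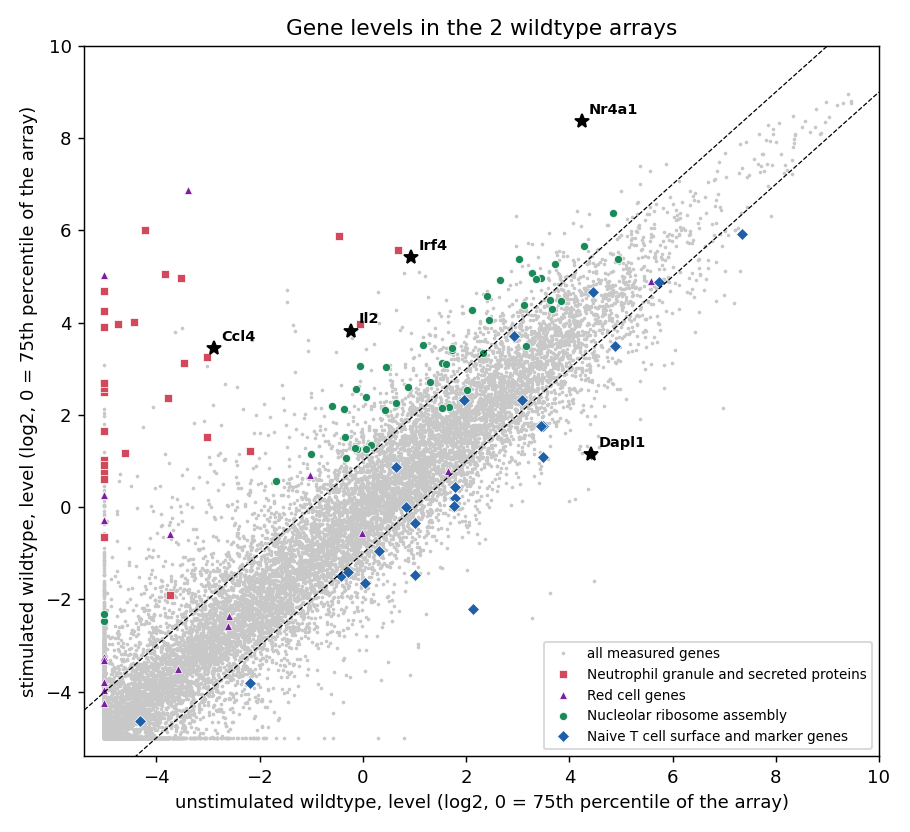
Each point is a gene measured in wildtype, with its level in unstimulated cells on the x axis and in stimulated cells on the y axis, both log2 with 0 at the array's 75th percentile; dashed lines mark a 2-fold difference and black stars the 5 marker genes. Neutrophil genes (squares) and some red cell genes (triangles) stand at the upper left, nucleolar genes (circles) lie above the diagonal by about their median of 1.60, and most naive marker genes (diamonds) lie below it, with a median difference of -1.37.

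The pair labelled knockout shares no array with the wildtype pair and can be read beside it. In it 1919 of 14229 measured genes were higher (13.5%) and 1963 were lower (13.8%). Of the 14619 genes measured in wildtype 971 (6.64%) were higher in both pairs and 1051 (7.19%) were lower in both. That is 46.7% of the genes higher in wildtype and 56.2% of the genes lower in wildtype. Of the other genes higher in wildtype 799 were within 2-fold in the pair labelled knockout, 93 were lower there and 216 were not measured. Of the other genes lower in wildtype 771 were within 2-fold, 10 were higher and 38 were not measured. The stimulated wildtype array was 2-fold above each of the other 3 arrays for 599 genes (4.1%), of which 66 were on the lists of other cells. Unlisted genes in that set included Chil1, a chitinase-like protein, the formyl peptide receptors Fpr1 and Fpr2, and Cd33, each at the floor in the other 3 arrays. Pooling both genotypes for a test of stimulation was not done.

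**Figure D3:**
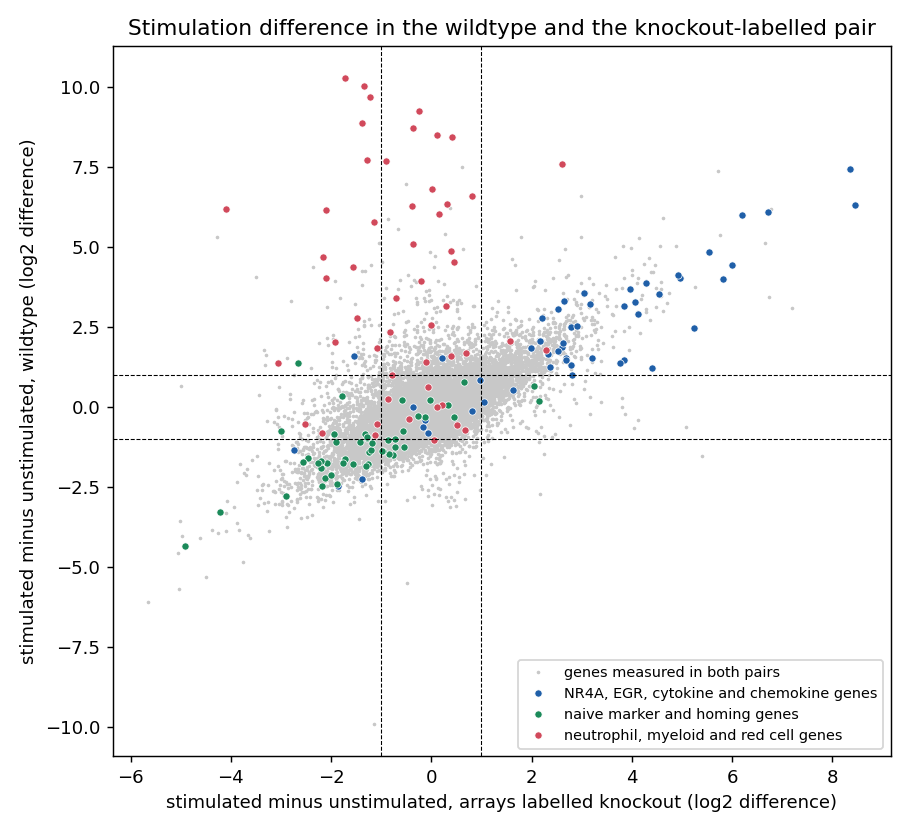
Each point is a gene measured in both pairs, with its stimulation difference in the arrays labelled knockout on the x axis and in wildtype on the y axis (log2); dashed lines mark 2-fold. Blue NR4A, EGR, cytokine and chemokine genes mostly run up along both axes and most green naive and homing genes down, whereas red neutrophil, myeloid and red cell genes reach 10.28 in wildtype and mostly lie near or below 0 in the arrays labelled knockout.

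Among genes on no list of other cells and above the floor on both wildtype arrays, the largest that were higher in both pairs were secreted and surface proteins, a feedback inhibitor and enzymes. Sema7a, a membrane-anchored semaphorin, had levels of 3.88 in stimulated and -3.51 in unstimulated wildtype (7.39, 167-fold), and of 3.75 and -1.96 in stimulated and unstimulated labelled knockout. Xcl1, a chemokine for cross-presenting dendritic cells, stood at 3.07 and -3.02 (6.09), and Il17a, the cytokine of type 17 helper cells, at 1.75 and -4.25 (6.00). Spry1, an inhibitor of RAS-MAPK signalling, stood at 4.45 in stimulated and -1.47 in unstimulated wildtype (5.92). These lay far apart on both pairs. Akr1c18, which breaks down progesterone, followed at 5.32, then the neuropeptide Npw (5.28), the cholesterol sulfotransferase Sult2b1 (5.12), the lysolipid carrier Mfsd2a (5.04), hexokinase Hk2 (4.98), the zinc finger gene Zfp948 (4.93), the adhesion molecule Alcam (4.69), fibronectin Fn1 (4.64) and cyclin O, Ccno (4.61). With Ccl4 and Irf4 they are the 15 largest of 752 such genes.

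On the lower side, the 15 largest of 893 genes lower in both pairs were led by Rwdd2a, with a level of -4.90 in stimulated and 4.99 in unstimulated wildtype (-9.90). Its unstimulated labelled-knockout level was -3.86, so its brightness was seen on the unstimulated wildtype array alone. Dtx1, a Notch-induced ubiquitin ligase linked to T cell anergy, stood at -1.61 in stimulated and 4.48 in unstimulated wildtype (-6.09) and at -1.85 and 3.79 in labelled knockout. Ddit4, a brake on mTORC1, stood at 2.15 and 6.98 in wildtype (-4.84) and at 2.88 and 6.63 in labelled knockout. Apart from Rwdd2a, these genes were low in both stimulated and high in both unstimulated arrays. The others were Apol9b (-5.68), Lrrc75b (-4.56), the growth factor binding protein Igfbp4 (-4.35), the glutathione-cleaving enzyme Ggt5 (-4.09), the phosphatase and cofactor Eya2 (-4.09), Dmbt1 (-4.02), the dendritic cell growth factor Flt3l (-3.98), the TCR adaptor Sit1 (-3.93), Rtn4rl1 (-3.88), the GTPase Rab37 (-3.86), Raver2 (-3.84) and the histone gene H2bu2 (-3.60).

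**Figure D4:**
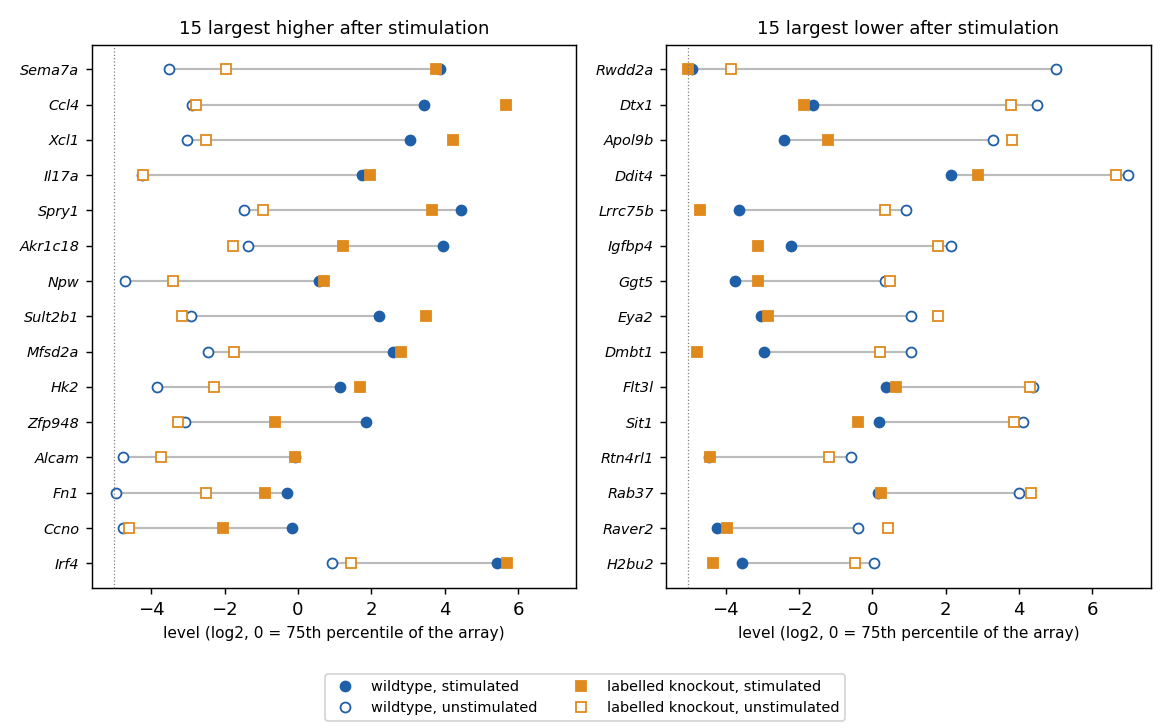
Levels (x axis, log2, 0 at the array's 75th percentile) of the 15 genes of largest difference on each side that were called alike in both pairs; circles are wildtype and squares labelled knockout, filled when stimulated and open when unstimulated, and a grey line joins the wildtype pair. Filled symbols lie right of open ones for every gene at the left and left of them for every gene at the right, and Rwdd2a is the gene whose open symbols differ most, at 4.99 in wildtype and -3.86 in labelled knockout.

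Other genes were called in wildtype but not called the same way in the arrays labelled knockout. The 8 largest of 591 on the higher side were Pi16 (6.22), the gluconeogenic enzyme Fbp1 (5.42), glycogen phosphorylase Pygl (5.33), complement C3 (5.13), Emilin2 (5.05), the fatty acid receptor Gpr84 (4.96), Adssl1 (4.53) and Agpat1 (4.44). All 8 were brightest on the stimulated wildtype array: C3, for example, had 3.81 there, -1.32 in unstimulated wildtype, and -1.75 and -0.70 in stimulated and unstimulated labelled knockout. Myeloid cells express C3, Gpr84 and Pygl, and the part of such cells in these values was not tested. On the lower side the largest of 598 was Vmn2r85, a vomeronasal receptor, at -1.86 in stimulated and 3.63 in unstimulated wildtype (-5.48), against -3.03 in stimulated and -2.53 in unstimulated labelled knockout. The next 7, Mylpf (-2.90), Gtpbp3 (-2.89), Lpar5 (-2.80), Ms4a19 (-2.80), Alox12e (-2.78), Krt34 (-2.72) and Lypd5 (-2.55), were all dim after stimulation, at -3.05 or less.

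The NR4A and EGR genes, which encode immediate early transcription factors, were listed with the corepressors Nab1 and Nab2. Of these 9 genes 8 were higher and 0 lower (median 3.29), and the same 8 were higher in labelled knockout. Under a floor at the 60th percentile 5 of 8 were higher, and 5 of 6 in the authors' values. Nr4a2 stood at 3.79 in stimulated and -3.64 in unstimulated wildtype (7.43, with some probes at the floor), Nr4a3 was higher by at least 3.54 and Egr4 by at least 4.84. Egr2 (3.29) and Egr3 (2.07), which restrain T cells as well as mark their activation, and Egr1 (1.88) were higher, and so was their corepressor Nab2 (1.49). Nab1 (-0.61) was the exception. Egr1 was already bright at rest, with levels of 5.10 in stimulated and 3.22 in unstimulated cells.

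Of 17 AP-1, ATF and MAF genes 9 were higher and 1 lower (median 1.54), with 8 and 1 of them called alike in labelled knockout. Atf3, a stress-induced repressor, stood at 1.19 in stimulated wildtype and at the floor in unstimulated (at least 6.20). Fosb (3.56), Fosl2 (3.15), Fosl1 (2.72), the small MAF partners Maff (2.96) and Mafg (2.63), the cyclic AMP repressor Crem (2.95) and Bach1 (1.54) were higher. Jun (-0.07), Junb (0.41), Jund (-0.68), Batf (-0.38) and Fos (0.85), the classic partners, were within 2-fold. Jdp2 (3.67) was the 1 member higher only in the wildtype call, at 0.79 in stimulated wildtype and between -2.88 and -1.93 in the other 3 arrays. Batf3 (-2.93), also a dendritic cell gene, was lower.

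NF-kB genes moved in part. Of 16 measured genes 6 were higher and 1 lower (median 0.27), all 7 called alike in labelled knockout. The higher members were the precursor subunits Nfkb1 (2.42) and Nfkb2 (2.12), Relb (1.16), and the regulators Nfkbid (1.83), Tnip2 (1.56) and Nfkbib (1.21). The inhibitor Nfkbia (-0.81) and the deubiquitinase Tnfaip3 (0.22) were within 2-fold, though in labelled knockout they differed by 0.65 and 1.02.

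Of 11 NFAT and calcineurin genes 1 was higher and 4 were lower (median -0.30, and 0.04 under a floor at the 20th percentile), with 1 and 2 of them called alike in labelled knockout. Nfatc1, the inducible NFAT, was the higher gene (1.64), and Nfatc2 (-1.13, its probes disagreeing in sign), Nfatc3 (-1.16), the calcineurin catalytic subunit Ppp3ca (-1.15) and Rcan3 (-1.69) were lower. Of 9 interferon regulatory factors Irf4 and Irf8 were higher, 1 was lower and 6 were within 2-fold. Irf8 stood at 3.84 in stimulated and 0.72 in unstimulated wildtype (3.12), and at 4.51 and 1.37 in labelled knockout. The list's median of 0.18 turned negative when arrays were scaled to their median (-0.07). Myc, the driver of growth in activated T cells, stood at 5.70 in stimulated and 3.46 in unstimulated wildtype (2.24), while its partner Max (0.20) was within 2-fold and the antagonist Mxd4 (-1.79) was lower.

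Regulators of helper lineages were higher in 7 of 24 and lower in 0. Bhlhe40, which licenses cytokine production, stood at 2.39 in stimulated and -1.002 in unstimulated wildtype (3.39). Tbx21, the factor of type 1 helper cells (2.99), Bcl6 of follicular helper cells (2.52), Nfil3 (2.35) and the hypoxia factor Hif1a (1.13) were higher in both pairs, and Rora (1.41) in the wildtype call alone. Eomes (1.08), whose probes disagree in sign, differed by -0.23 in the authors' normalized values and by -0.03 for its brightest probe. Gata3 (-0.21) and Foxp3 (0.29) were within 2-fold. Bhlhe40 and Tbx21 thus differed by more than 4-fold, while Gata3 of type 2 helper cells and Foxp3 of regulatory T cells did not pass 2-fold.

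Of 17 interleukin and interferon genes 15 were higher and 1 lower (median 1.74), 13 and 1 of them called alike in labelled knockout. Many are dim: under a floor at the 60th percentile 6 of the 13 then measured were higher (median 0.60), and 7 of 9 in the authors' values. Il4, of type 2 helper cells, stood at 0.01 in stimulated and -3.30 in unstimulated wildtype (3.31), Ifng, of type 1 cells, at 1.04 and -1.42 (2.47), and Il10 at -1.09 and -3.09 (2.0002). Both pairs showed these 3 higher in stimulated cells. Several cytokines were measured only after stimulation, with a floor level in unstimulated cells: Il13 (at least 3.22), Il5 (at least 3.16), Il3 (at least 2.91), Il9 (at least 1.53), Il31 (at least 1.48) and Il6 (at least 1.40). Ifng differed by 5.23 in labelled knockout, against 2.47 in wildtype. Il21 (-0.12) was within 2-fold, and Il16 (-1.34), which resting T cells store, was lower.

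TNF family ligands and growth factors gave 12 of 18 genes higher and 1 lower (median 1.49), all 13 called alike in labelled knockout. Tnf stood at 3.995 in stimulated and 0.31 in unstimulated wildtype (3.68). Lif (at least 4.01), the granulocyte-macrophage factor Csf2 (at least 3.56), the death ligand Fasl (3.07), Tnfsf11 (2.80), Tnfsf8 (2.53), Tnfsf14 (2.50), lymphotoxin Lta (1.67) and the B cell helper Cd40lg (1.32) were higher. Tnfsf10, the TRAIL ligand, stood at -0.03 in stimulated and 2.21 in unstimulated wildtype (-2.24). Of 7 measured chemokines 5 were higher and 1 lower (median 3.88), with Ccl3 (at least 4.44), Cxcl10 (3.88) and Ccl1 (1.23) beside Ccl4 and Xcl1, and 3 of 5 were higher in the authors' values. Ccl5, stored by memory cells, had 3.004 in stimulated and 5.47 in unstimulated wildtype (-2.46).

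Receptors for these signals went both ways. Cytokine receptors and their kinases were higher in 5 and lower in 7 of 23 (median -0.25), and 11 were lower after median scaling. Il2ra, the high-affinity chain for Il2, stood at 4.36 in stimulated and 1.92 in unstimulated wildtype (2.44), and Il12rb1 (1.80), Il15ra (1.56), Jak2 (1.33) and Il18rap (1.18) were higher. Il27ra (-1.76), the interferon gamma receptor chain Ifngr2 (-1.73), Il6st (-1.51), Il10ra (-1.43), Il7r (-1.38), Jak3 (-1.19) and Tyk2 (-1.07) were lower. Only Il27ra among these 7 was also lower in labelled knockout, where the median was 0.13. Of 10 TNF receptors the costimulators Tnfrsf9 (2.51), Tnfrsf18 (1.48) and Tnfrsf4 (1.35) were higher and 0 were lower.

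Costimulatory and coinhibitory receptors had 11 of 21 higher and 1 lower (median 1.22). The checkpoint receptor Pdcd1 stood at 4.21 in stimulated and 1.47 in unstimulated wildtype (2.74), and its ligand Cd274 at 4.05 and 1.26 (2.79). Slamf1 (3.16), Cd160 (1.92), Tigit (1.72), the early activation marker Cd69 (1.69), Ctla4 (1.66), Vsir (1.53), Cd200 (1.34) and Havcr2 (at least 1.22) followed. Cd244a (3.72) was the largest of the list but not in labelled knockout, where it differed by -0.90, and natural killer and myeloid cells carry it too. Cd28 (-0.40), Icos (0.71) and Lag3 (0.35) were within 2-fold and Cd96 (-1.15) was lower.

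The signalling parts of the TCR itself had 10 of 27 lower and 1 higher (median -0.43), with 7 of the 10 also lower in labelled knockout. Sit1, Themis (-2.61), Pag1 (-1.77), the kinase Txk (-1.502), Skap1 (-1.34), Grap2 (-1.32), Cd4 (-1.07), Prkcq (-1.07), Cd3g (-1.05) and Lck (-1.02) were lower. Fyn, a kinase beside Lck, was the higher gene (1.70), at 1.91 in stimulated and 0.20 in unstimulated wildtype, whereas in labelled knockout it differed by 0.26. Zap70 (0.91) and Lat (-0.29) were within 2-fold. Ubiquitin ligases and diacylglycerol kinases that dampen the TCR signal had 0 of 10 higher and 4 lower (median -0.88): Dtx1, Dgka (-1.65), Dgkz (-1.18) and Peli1 (-1.04).

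Feedback inhibitors of the pathway, listed together with survival kinases of the PIM family, had 10 of 26 higher and 3 lower (median 0.69). After Spry1 came Rgs16, which limits G protein signals, at 1.96 in stimulated and -1.79 in unstimulated wildtype (3.75), and the MAP kinase phosphatases Dusp14 (at least 2.60), Dusp4 (1.99), Dusp5 (1.57) and Dusp6 (1.498). The survival kinases Pim3 (2.10) and Pim1 (1.09) were higher. Spred2 (-1.55), Ubash3a (-1.23) and Socs3 (-1.06) were lower, and Dusp1 (-0.74), Dusp2 (0.37), Socs1 (0.82) and Cish (0.96) were within 2-fold. Of 16 genes listed for decay or control of cytokine messenger RNA 2 were higher and 3 lower (median 0.03). Among all measured genes 14.2% were higher and 12.8% lower. Zfp36l1 (1.75) and Zc3h12a (1.27) were higher, and Zfp36l2 (-1.90), Btg1 (-1.35) and Pdcd4 (-1.03) were lower. Of these, 1 higher and 1 lower gene were called alike in labelled knockout.

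Of 25 surface and marker genes of naive T cells 17 were lower and 0 higher (median -1.37), and 14 of them were lower in labelled knockout as well. Besides Igfbp4 and Dapl1, Lypd6b stood at -1.47 in stimulated and 1.01 in unstimulated wildtype (-2.48), and Slc12a7 at 1.09 and 3.50 (-2.40). Tdrp (-1.75), Arhgef18 (-1.74), the ganglioside enzyme St8sia1 (-1.71) and Ramp1 (-1.68) were lower too. Of 25 transcription factors of naive T cells 9 were lower and 0 higher (median -0.49). They were Tsc22d3, which responds to glucocorticoid (-2.66), Foxo1 (-2.21), Bcl11b (-2.07), Zbtb20 (-1.76), the partners Lef1 (-1.66) and Tcf7 (-1.58), Id2 (-1.37), Klf3 (-1.30) and Elf4 (-1.22). Klf2 stood at 5.78 in stimulated and 6.76 in unstimulated wildtype (-0.98), just within 2-fold, as was Ets1 (-0.999). Satb1 (-0.19), Ikzf1 (-0.22) and Myb (0.34) hardly differed.

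Homing and retention genes had 14 of 23 lower and 1 higher (median -1.09), with 9 lower in both pairs. Itgb7, the integrin chain for gut homing, stood at 4.42 in stimulated and 7.18 in unstimulated wildtype (-2.76). S1pr1, the receptor that lets T cells leave lymph nodes, stood at 2.36 and 4.49 (-2.12). The chemokine receptors Ccr6 (-2.22), Cxcr5 (-1.85), Cxcr4 (-1.79) and Ccr7 (-1.4999) and the selectin ligand Selplg (-1.78) were lower. Gnai2, a G protein under these receptors, was the higher member (1.39) and was lower in labelled knockout (-2.66). Gpr183 (0.20) and Ccr4 (0.68) were within 2-fold in wildtype, against 2.15 and 2.06 in labelled knockout.

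Brakes on growth had 5 of 21 lower and 1 higher (median -0.63), all 6 called alike in labelled knockout. After Ddit4 came Txnip, which limits glucose uptake, at 1.18 in stimulated and 4.24 in unstimulated wildtype (-3.06), then Pik3ip1 (-2.16), Prkag2 (-1.49) and Sesn1 (-1.02), with Phlpp1 (1.80) on the higher side. Tsc1 (-0.25) and Tsc2 (0.03) were within 2-fold. Of 6 measured inhibitors of cyclin-dependent kinases Cdkn2d stood at 1.55 in stimulated and 4.55 in unstimulated wildtype (-2.999), Cdkn2c was lower (-1.43), Cdkn1a was higher (1.70) and Cdkn1b (-0.54) was within 2-fold. BCL2 family genes went both ways: the protective Bcl2a1d (2.54, with near-identical copies) and Bcl2l1 (1.67) were higher and the killers Bmf (-3.11) and Bbc3 (-2.46) lower, but the killers Bcl2l11 (2.10), Bax (1.28) and Bid (1.03) were higher. Cytotoxic genes were led by Gzmb, at 1.77 in stimulated and -1.49 in unstimulated wildtype (3.26), and Srgn (2.01), against Ctsw (-3.03).

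**Figure D5:**
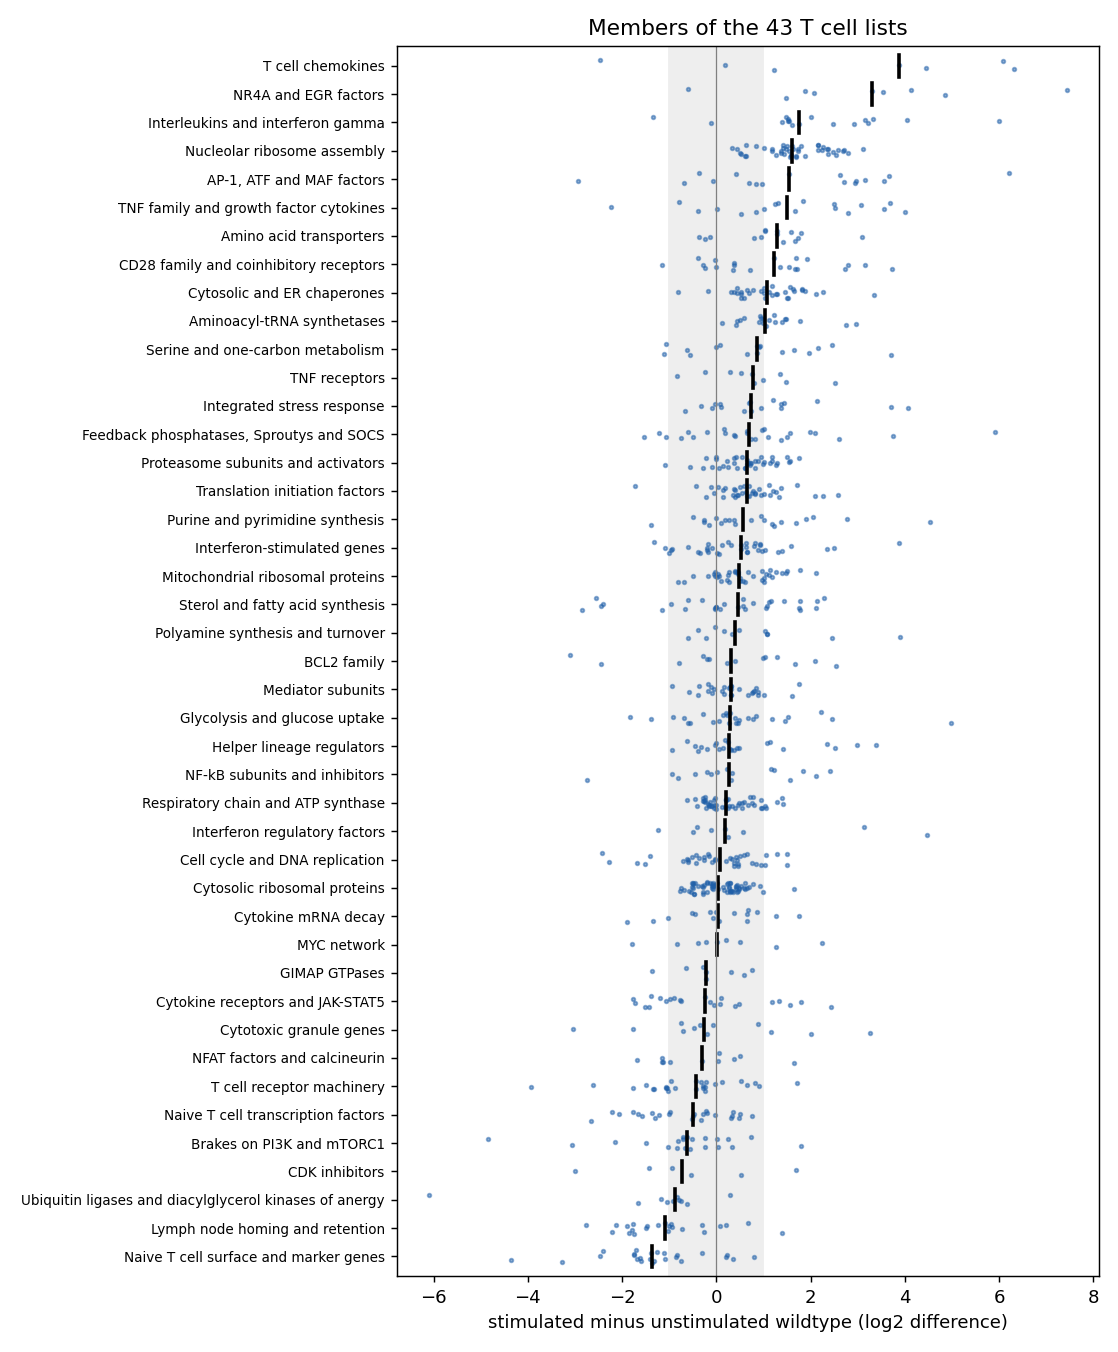
Each row is 1 of the 43 T cell lists, ordered by its median; blue points are the members' log2 differences, stimulated minus unstimulated wildtype, black bars are medians and the grey band marks differences within 2-fold. Chemokines (3.88), NR4A and EGR factors (3.29) and interleukins (1.74) stand at the top, nucleolar genes form a compact group around 1.60, cytosolic ribosomal proteins other than Rpl4 (1.66) stay in the grey band, and naive surface genes (-1.37) stand at the bottom.

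Of 46 nucleolar ribosome assembly genes 38 were higher and 0 lower (median 1.60), and 35 of them were higher in both pairs. Nop16 stood at 2.57 in stimulated and -0.14 in unstimulated wildtype (2.71), nucleolin Ncl at 2.20 and -0.60 (2.80), and Wdr75 at 3.05 and -0.06 (3.12). The other 8 genes, from Fbl (0.85) to Polr1a (0.34), also lay above 0. The cytosolic ribosomal proteins they serve differed little: 1 of 66, Rpl4 (1.66), was higher, 0 were lower, and the median was 0.03, with -0.22 when arrays were scaled to their median. Many of these genes have processed copies that their probes may also read. Mitochondrial ribosomal proteins lay between, with 12 of 40 higher and 0 lower (median 0.48) and 6 higher after median scaling, led by Mrpl32 (2.11) and Mrpl12 (1.77).

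Some genes of translation initiation and tRNA charging were higher. Of 39 initiation factors 11 were higher (median 0.65), or 7 of 38 after median scaling, among them Eif2s1 (2.59), Eif1a (2.26), Eif2b3 (2.10), Eif3b (1.71) and the cap-binding Eif4e (1.14), and the inhibitor Eif4ebp2 was the 1 lower, at 2.70 in stimulated and 4.43 in unstimulated wildtype (-1.73). Its relative Eif4ebp1 was higher (1.33). Of 20 aminoacyl-tRNA synthetases 10 were higher and 0 lower (median 1.02), and all 10 were higher in labelled knockout too, while 6 were higher in wildtype after median scaling. Eprs (at least 2.96), Rars (2.75), Wars (1.79) and Yars (1.47) led. Amino acid carriers had 10 of 15 higher and 0 lower (median 1.28), against 6 of 13 higher under the 60th percentile floor and 5 of 12 in the authors' values. Slc7a5 (1.67) and its partner Slc3a2 (1.28), which bring in leucine, the glutamine carrier Slc1a5 (1.74), the arginine carrier Slc7a1 (1.79) and the glycine carrier Slc6a9 (3.08) were among them. Slc38a2 (-0.25) was within 2-fold.

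Biosynthetic enzymes were higher in part. Serine and one-carbon genes had 6 of 17 higher and 2 lower (median 0.86), all 6 in both pairs: Shmt1 stood at 1.04 in stimulated and -2.66 in unstimulated wildtype (3.70), followed by Shmt2 (2.45), Cbs (2.15), Psat1 (1.96), Mthfd1 (1.64) and Mat2a (1.40), whereas Tyms (-1.07) and Aldh1l2 (at most -1.11) were lower. Purine and pyrimidine genes had 9 of 22 higher and 1 lower, with Umps (2.04), Impdh2 (1.90) and Pfas (1.69) higher in both pairs and Adss (2.76) and Adssl1 in wildtype only by the 2-fold rule. For polyamines, Odc1, which sets the rate of synthesis, stood at 3.36 in stimulated and -0.53 in unstimulated wildtype (3.89), and Srm (2.45), Dohh (1.07), Eif5a (1.07) and Smox (1.03) were the other 4 higher genes of 12. After median scaling 2 of the 12 were higher. Eif5a is the protein that polyamines modify, and Dohh is an enzyme of that modification.

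Of 27 genes of glycolysis, glucose uptake and linked pathways 6 were higher and 2 lower (median 0.29). Tkt (2.22) and G6pdx (1.53), which were higher, belong to the pentose phosphate pathway. Hk2 stood at 1.14 in stimulated and -3.84 in unstimulated wildtype (4.98). The lactate exporter Slc16a3 (2.46), Pgam1 (1.45) and lactate dehydrogenase Ldha (1.19) were higher too. Most steps in between, such as Gapdh (0.49), Aldoa (0.28) and Pkm (0.15), and the glucose carriers Slc2a1 (0.84) and Slc2a3 (0.46), were within 2-fold. Pdk1 (-1.83), which closes the entry of pyruvate into mitochondria, and Pfkm (-1.38) were lower. Respiratory chain genes had 5 of 50 higher and 0 lower (median 0.20), beside 14.2% higher and 12.8% lower among all measured genes. After median scaling 3 were higher and the median was -0.05. Cycs (1.03) was the 1 of the 5 also higher in labelled knockout.

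Of 31 measured genes of sterol and fatty acid metabolism 11 were higher and 5 lower (median 0.45), and all 11 were higher in both pairs, with 7 higher in wildtype after median scaling. Sqle, squalene epoxidase, stood at 4.21 in stimulated and 1.93 in unstimulated wildtype (2.29). Insig1 (2.13), fatty acid synthase Fasn (2.12), Fdps (1.79), Lss (1.78) and Idi1 (1.76) were higher, and the exporters Abca1 (-2.84) and Abcg1 (-2.56), the desaturase Scd2 (-2.45), Dhcr7 (-2.41) and Mvd (-1.15) were lower. Dhcr7 and Mvd, which are synthesis enzymes, were not called in labelled knockout (-0.88 and 0.16).

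Of 34 chaperone genes 20 were higher and 0 lower (median 1.08), 17 in both pairs. The subunits of the chaperonin that folds actin and tubulin stood together, from Cct3 (2.12) and Cct6a (1.87) to Cct5 (1.02). Hsp90aa1 stood at 6.32 in stimulated and 2.97 in unstimulated wildtype (3.34) but differed by 0.44 in labelled knockout, and Hspa1a (0.58) differed by 3.04 there. Hspd1 (1.56) and Hspe1 (1.46), partners in mitochondrial folding whose genes are neighbours, were higher in both. Of 39 proteasome genes 10 were higher, or 6 after median scaling, led by Psmd12 (1.75), and 1 lower, the immunoproteasome subunit Psmb8 (-1.09). Of 18 integrated stress response genes 7 were higher and 0 lower (median 0.73), with 4 of 12 higher under the 60th percentile floor. Asns, asparagine synthetase, stood at 1.997 in stimulated and -2.07 in unstimulated wildtype (4.06), and Chac1 (3.71), Atf4 (1.36) and Trib3 (1.21) were higher, whereas Ddit3 (-0.02) and Ppp1r15a (-0.34) were within 2-fold.

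Of 40 measured cell cycle and replication genes 5 were higher and 5 lower, shares near those of all measured genes, with a median of 0.09. After median scaling 3 were higher and the median was -0.16, and 3 were higher by the brightest probe. Cdk4 (1.05) and Cdca7 (1.28) were higher in both pairs. Ccna2 (1.51) and Mki67 (1.03), genes of dividing cells, were higher in wildtype but differed by -0.41 and -0.62 in labelled knockout, and the stimulated wildtype array also held the granulocyte and red cell genes named above, whose precursors divide. That link was not tested. E2f2 (-2.43), Ccnd1 (at most -2.29), Rbl2 (-1.68), Ccnd3 (-1.52) and Ccne1 (-1.41) were lower in both pairs, while Ccnd2 (0.83) and Pcna (0.37) were within 2-fold.

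Interferon-stimulated genes had 7 of 37 higher and 2 lower (median 0.52), beside 14.2% higher and 12.8% lower among all measured genes. Gbp2, a GTPase induced by interferon gamma, stood at 5.95 in stimulated and 3.61 in unstimulated wildtype (2.34), and Cxcl10, Iigp1 (2.50), Gbp3 (1.39) and Isg15 (1.303) were higher in both pairs. Oas2 (-1.31) and Ifit2 (-1.10) were lower. Of 8 GIMAP genes, which keep naive lymphocytes alive, 1 was lower, Gimap8 (-1.36), beside 12.8% lower among all measured genes. Of 30 measured Mediator subunits 3 were higher, Med31 (1.75), Med29 (1.60) and Med4 (1.01), beside 14.2% higher among all measured genes. Of these subunits 0 were lower, and 0 were called in both pairs.

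Promoter sequence was set beside the calls. RefSeq windows were matched for 11739 of the 14619 measured genes. The E-box CACGTG, bound by MYC, lay in 14.8% of the 963 windows of genes higher in both pairs and in 7.87% of the 1157 windows of genes lower in both, against 9.11% of the windows of measured genes and 7.15% of all 32851 windows. The cyclic AMP element TGACGTCA lay in 3.53%, 1.47%, 2.66% and 1.79% of the same sets. The ETS site CCGGAAG lay in 16.9% of windows of genes higher in both and 10.72% of those lower in both, against 15.02% of measured genes and 8.86% of all windows. The AP-1 site TGANTCA (5.61% and 5.10%, against 6.01% of measured genes and 7.81% of all windows), the NF-kB site GGGNNTTCC (7.68% and 6.74%, against 6.83% and 5.82%) and the EGR site GCGGGGGCG (4.57% and 5.19%, against 4.72% and 2.91%) differed less between genes higher and lower in both. The CArG box of serum response factor lay in 1.87% and 1.38%, against 1.45% of measured genes and 1.63% of all windows. The interferon response element lay in 3.32% and 2.94%, against 3.26% and 3.44%, and the TATA box TATAAA, read on the gene's strand alone, in 5.30% and 4.67%, against 5.87% and 8.32%.

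Windows of 2 growth lists were searched too. Of 13 windows of aminoacyl-tRNA synthetases 3 held the amino acid response element TGATGNAAT (23.1%), 4 the E-box (30.8%) and 5 the ETS site (38.5%). The amino acid response element lay in 0.529% of windows of measured genes and 0.965% of all windows. It lay in 0.415% of windows of genes higher in both pairs and 0.519% of those lower in both. Of 44 windows of nucleolar genes 0 held that element, 6 held the E-box (13.6%) and 16 the ETS site (36.4%). The difference between these lists was not tested. The median GC content was 60.7% in windows of genes higher in both pairs and 59.3% in those lower in both, against 59.0% in measured genes and 52.7% in all windows. Motifs other than the TATA box were searched on both strands, any overlap was counted, and a gene with several starts gave several windows. Absence of these letters says nothing about a factor's binding elsewhere.

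Some genes called alike in both pairs were neighbours in the RefSeq gene order. The ligands Tnfsf9 (1.25), Cd70 (1.01) and Tnfsf14 lay next to each other on chromosome 17 among measured genes, and all 3 were higher. So were Pdia6 (1.17), Nol10 and Odc1 on chromosome 12 and Ifitm2, Ifitm1 and Ifitm3 on chromosome 7, the last a family of similar sequence. On the lower side Lrrc75b, Ggt1 and Ggt5 were neighbours on chromosome 10 and Itga6, Pdk1 and Rapgef4 (-1.62) on chromosome 2. Runs of at least 3 such genes are a description, since how often neighbours would share a direction was not tested.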

How the data were processed

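Signals of 1 array per sample were extracted with Agilent Feature Extraction 10.7.3.1, per the submitters' processing notes. Per the file headers, the authors deposited intensity values on a linear scale, not normalized between arrays. A second deposited table holds log2 values normalized in GeneSpring GX 11.5.1, by a method the headers do not state, for 17878 probes. It was used as an alternative.

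From the raw intensity, 1377 control spots of 44397 were left out, spots of 1 probe were averaged, and each array was divided by its 75th percentile over the 39429 probes. Signals under the 40th percentile floor (-5.01) were set to it before log2 was taken. Probes were named through RefSeq accessions, which gave 26299 named probes for 19896 genes, and the log2 values of a gene's probes were averaged. Detection and saturation flags were not used here. Python 3.11.15 with numpy 2.4.6 and pandas 2.3.3 was used, and the calculation was tested on simulated data. Arrays limit the precision by their number, 1 per group, so no test across samples was made.

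Besides key members of the 52 gene lists, the genes named are those above the floor on both wildtype arrays, 2-fold different with every probe in that direction and on no list of other cells. Of these, the 15 largest on each side also called in the arrays labelled knockout and the 8 largest on each side not so called were taken. In each T cell list up to 4 of the largest on each side were taken, and in lists of other cells the 6 largest. Members and lists were chosen with earlier results of these data known, and further members of a list were named after their values were seen. Alternatives were another scaling, quantile normalization, the authors' values, other floors, a pseudocount, the brightest probe, a 4-fold call and leaving out genes of other cells. Some members of the lists are counted but not reported singly here.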

Additional observations from a re-analysis of the deposited data

Results flagged for a closer look

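Some results had opposite signs in the wildtype and the labelled-knockout pair, each pair being 1 stimulated and 1 unstimulated array, and in no case was the difference between the pairs tested. Lists whose medians had opposite signs were neutrophil genes (6.46 in wildtype, -0.31 in labelled knockout), myeloid receptors and signalling (2.33 and -0.45), red cell genes (1.23 and -0.37) and platelet genes (0.48 and -0.07). The same held, with values near 0, for interferon regulatory factors (0.18 and -0.03), the MYC network (0.016 and -0.05), cytokine receptors (-0.25 and 0.13) and cytokine mRNA decay (0.027 and -0.07).

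Of the 93 genes called higher in wildtype and lower in labelled knockout, 16 were on the lists of other cells and 77 were not. Of the 16, Plbd1 differed by 6.19 in wildtype and -4.09 in labelled knockout, Tgfbi by 4.38 and -2.36, Tyrobp by 4.68 and -2.16, Ctsg by 8.87 and -1.38, Mpo by at least 9.70 and -1.22, and Alox5ap by 5.78 and -1.15. The alpha globins Hba-a2 (10.28 and -1.72) and Hba-a1 (at least 10.05 and -1.34) did likewise. Genes on no list of other cells included Pygl (5.33 and at most -4.27), C3 (5.13 and -1.05), Agpat1 (4.44 and -1.20) and the T cell homing gene Gnai2 (1.39 and -2.66). The part of other cells in these values was not tested.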

How the results depend on the processing

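No paired analysis was possible because each group had 1 array and the labels carry no replicate numbers. Against 2079 higher and 1870 lower genes in wildtype, and 971 and 1051 in both pairs, the number of higher genes was 1316 in the authors' normalized values, which cover fewer probes, and 1203 under a floor at the 60th percentile, which leaves fewer genes measured. A 4-fold call gave 596 higher and 323 lower, and 234 and 176 in both pairs. The remaining alternatives kept these counts within 1.5 times. The median of all genes was -0.02, against -0.23 after median scaling and -0.11 after quantile normalization. Of 52 lists, 28 kept their count within 1.5 times under each alternative other than the 4-fold call, and 11 had a median that changed sign under at least 1. Of 399 genes examined singly, 335 kept direction and call under each of the 7 alternatives that gave them a value and 64 did not. All 7 gave a value for 311, the authors' values for 315 and the higher floor for 378. Of these 24 came within 2-fold under median scaling and 31 under the higher floor. Eomes alone changed sign after a call, giving -0.23 by the authors' table and -0.027 by its brightest probe. Signals near the floor limit dim genes.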

Other observations

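Of 7425 measured probes that no table used here named, 1329 were 2-fold higher and 779 lower in stimulated than in unstimulated wildtype, and 368 and 350 of them were called alike in the arrays labelled knockout. Among the 4634 measured genes with several probes, 831 were called in wildtype by the mean of their probes, and 385 had every probe past 2-fold. In 34 genes, probes passed 2-fold in opposite directions. The widest gap was that of Csf1r, the macrophage growth factor receptor, whose 3 probes ran from -1.75 to 4.47.

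A few genes were bright on the unstimulated wildtype array alone. Rgs13, a regulator of G protein signals known from B cells, stood at the floor in stimulated and at 0.79 in unstimulated wildtype, and at the floor on both arrays labelled knockout. Serpinb7, a protease inhibitor, stood at the floor in stimulated and at -0.58 in unstimulated wildtype.

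Drug exporters were higher as a run of neighbours: Abcb1a, Abcb1b and Abcb4 on chromosome 5, which are of similar sequence, were called higher in both pairs. On chromosome 15 the run was Tg, Sla, Ccn4 and Ndrg1, of which Sla, an adaptor that lowers TCR levels, lies inside the Tg locus in the mouse. Their share by chance was not tested.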
